A study of Mus with 6 samples.

Results

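H19, Igf2os and Kcnq1ot1 are long non-coding RNAs transcribed from a stretch of mouse chromosome 7 that is imprinted, meaning that the copy from one parent is used and the copy from the other is silenced. They were chosen by a rule on names and not on measured values, but with earlier results of these data known. They are 3 of the 2282 names in a deposited table of non-coding RNAs. The tissue was the right substantia nigra pars compacta (SNpc), part of the midbrain, whose dopaminergic neurons are lost in Parkinson's disease. All 6 samples came from mice that overexpress human alpha-synuclein carrying the A53T substitution. The 3 samples of the model group received the vehicle, 0.9% saline, and the 3 samples of the AVE0991 group received that compound at a dose of 10 mg/kg. AVE0991 is a non-peptide agonist of the angiotensin-(1-7) receptor Mas. Both were given by intraperitoneal injection once daily for 30 days. No wild-type group was analysed here. The labels used here state neither the age of the mice, nor the promoter of the transgene, nor that each sample is a separate animal, so every p-value here reflects how far these samples vary, and that variation may be technical.

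In the Igf2 domain, H19 is made from the maternal chromosome and the growth factor gene Igf2 from the paternal one, and both draw on the same downstream enhancers. The insulator protein CTCF binds the control region between them on the maternal copy and keeps those enhancers away from Igf2. Igf2os is transcribed from the opposite strand across the start of Igf2. In the neighbouring Kcnq1 domain, Kcnq1ot1 is a long antisense RNA that starts within an intron of the potassium channel gene Kcnq1 on the paternal chromosome and silences nearby genes in cis, among them the growth inhibitor Cdkn1c. H19 is abundant in the embryo and low in most adult tissues, and in the adult brain Igf2 is known mainly from the choroid plexus and the meninges. The counts used here do not separate the parental alleles. In RefSeq's gene order (GRCm38.p6), 4 genes lie between H19 and Igf2os and 14 between Igf2os and Kcnq1ot1.

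The 2 RNAs of the Igf2 domain fell with AVE0991, as 7.82% of all names tested did, and Kcnq1ot1 did not pass the test. H19 went to 29.2% of its level in the model group and Igf2os to 32.7%, while Kcnq1ot1 had 98.9% of its model level. Levels are given as normalized counts, which are whole read counts divided by a factor for each library. These are the authors' library factors, while the fitted fold changes below use edgeR's own scaling. The 2 can differ slightly, and for Kcnq1ot1 they differ in sign. The libraries were not matched to numbered samples and are called a, b and c within each group, in order of their factor.

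H19, whose transcript also carries the precursor of the microRNA miR-675, had normalized counts of 320, 267 and 406 in the model libraries (a, b, c). With AVE0991 it had 124, 105 and 60.5 in libraries a, b and c. The groups did not overlap, which was so for 39.0% of the names tested, and library c of the AVE0991 group was the lowest of all. The mean was 331 ± 70.1 in the model libraries and 96.5 ± 32.5 in the AVE0991 libraries (SD over 3 libraries). The fitted log2 fold change was -1.70 ± 0.31 (SE), with a 95% interval from -2.41 to -0.99 (adjusted p = 0.0117, by edgeR's quasi-likelihood F-test and the Benjamini-Hochberg method over the 1866 names tested). By its p-value H19 ranked 81 among the 1866, and 58 names had a more negative fold change.

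Igf2os had normalized counts of 241, 265 and 241 in the model libraries (a, b, c). With AVE0991 it had 117, 69.4 and 57.4. Here too the groups did not overlap. The model libraries lay close together, with a coefficient of variation of 5.53%, and the AVE0991 libraries were spread over a 2.04-fold range, with library a the highest. The mean was 249 ± 13.8 in the model libraries and 81.4 ± 31.7 in the AVE0991 libraries (SD over 3 libraries), and the fitted log2 fold change was -1.54 ± 0.30 (SE; 95% interval -2.22 to -0.85; adjusted p = 0.0147, same edgeR test). The call was lost without AVE0991 library b (adjusted p = 0.0523, edgeR) and without model library b (adjusted p = 0.0533, edgeR). Igf2os overlaps Igf2 in RefSeq, and no source used here states whether counting used strand, so reads from the 2 genes cannot be told apart. Igf2 itself was not analysed here.

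By read count, with no correction for length, Kcnq1ot1 ranked 6 of the 2247 names with a value. Its normalized counts were 93270, 78049 and 83338 in the model libraries (a, b, c), and 81554, 85447 and 84735 with AVE0991. All 3 AVE0991 libraries lay inside the range of the model libraries. The mean was 84886 ± 7727 in the model libraries and 83912 ± 2072 in the AVE0991 libraries (SD over 3 libraries). The fitted log2 fold change was 0.051 ± 0.12 (SE; adjusted p = 0.809, same edgeR test). Its 95% interval ran from -0.22 to 0.32, which corresponds to 0.861 to 1.25 times the model level. A fall as large as that of H19 or Igf2os lies outside this interval. The sign of so small a value was not stable: it was -0.017 with the authors' library factors and -0.035 without model library b. Kcnq1ot1 lies across part of Kcnq1 on the other strand, so the same limit on strand holds.

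**Figure D1:**
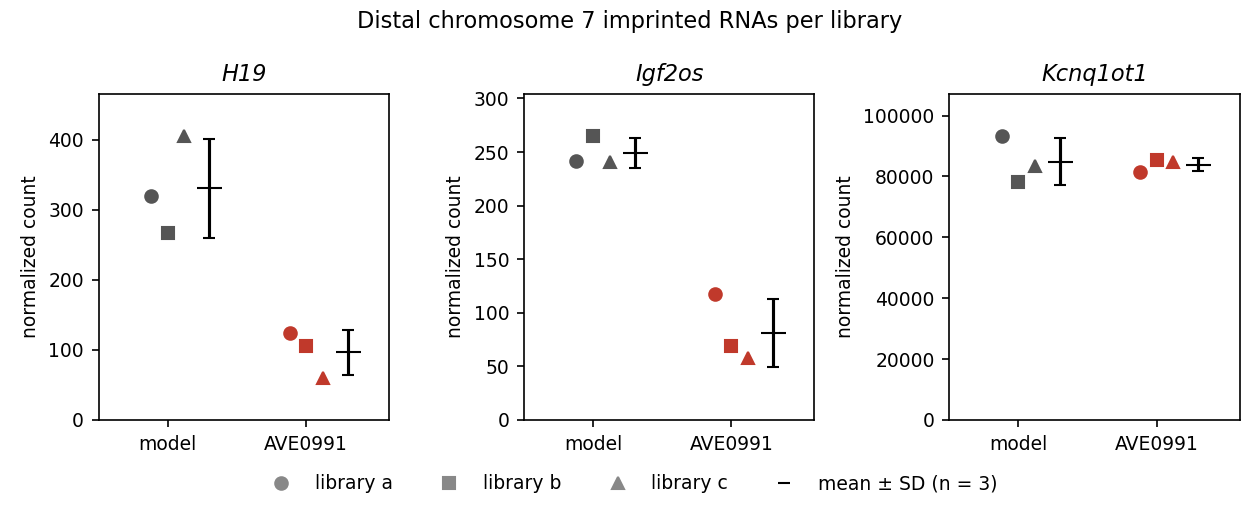
Normalized count (vertical axis, from 0, a separate scale for each RNA) of H19, Igf2os and Kcnq1ot1 in the 3 model and 3 AVE0991 libraries; symbols are single libraries and the bars show mean ± SD. For H19 and Igf2os all AVE0991 libraries lie below all model libraries (at most 124 against at least 267, and at most 117 against at least 241), and for Kcnq1ot1 the groups overlap.

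Read against the whole table, 286 of 1866 names passed the same test (15.3%), 146 of them lower with AVE0991 (7.82%) and 140 higher (7.50%). H19 and Igf2os were thus among the 146 that fell. Of the names tested, 22.5% had every AVE0991 library below every model library. Of the 286 names called, 45 had a more negative fold change than H19 and 52 a more negative one than Igf2os. All 3 RNAs had counts well above the minimum used to choose the names for testing, in both groups. The lowest single count was 57, for Igf2os in AVE0991 library c, with an exact Poisson 95% interval from 43.2 to 73.9 that covers counting error only.

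**Figure D2:**
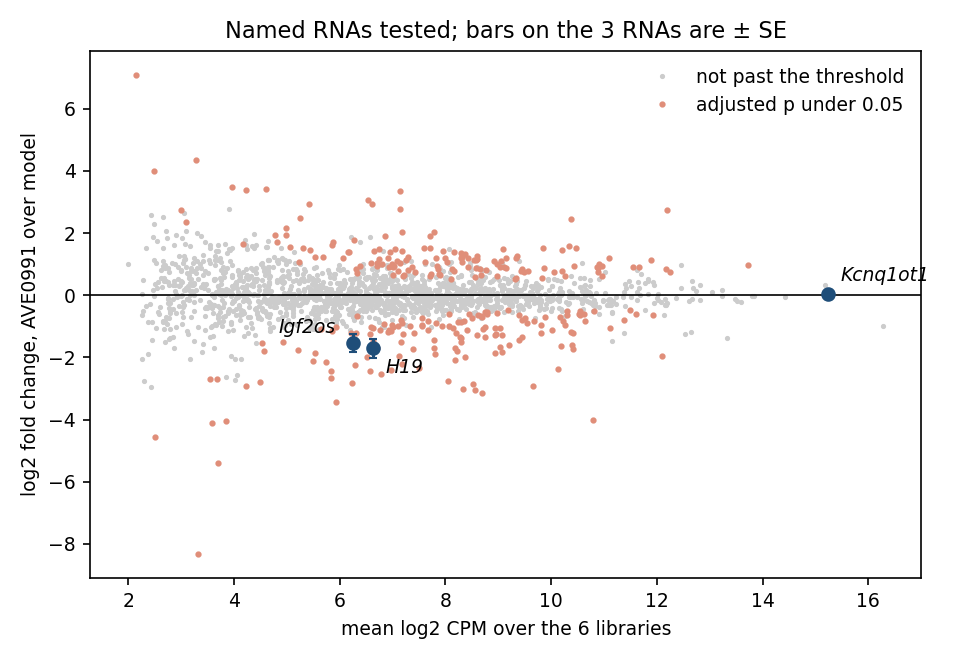
Log2 fold change of AVE0991 over model (vertical axis) against mean log2 CPM, counts scaled to library size (horizontal axis) for the 1866 names tested. Library size here is the sum of the recovered counts of the tested names, not of all reads. The 3 imprinted RNAs are in blue with their standard errors as bars. H19 (-1.70) and Igf2os (-1.54) lie below 0 at a middle read count, and Kcnq1ot1 (0.051) lies on the zero line near the end with the most reads.

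The rule that defined these 3 RNAs named the authors' own test, which compares the group means with unequal variances. In the authors' deposited table the statistic was -5.25 with 2.82 degrees of freedom for H19 (p = 0.0156), -8.41 with 2.73 for Igf2os (p = 0.00499) and -0.21 with 2.29 for Kcnq1ot1 (p = 0.85). That test takes the spread of each name from its own 3 values per group, where edgeR shares information on spread between names. Of 2247 names with a p-value in the authors' deposited table, 423 (18.8%) had an unadjusted p under 0.05. After Benjamini-Hochberg adjustment of those deposited p-values over all names, the values became 0.233 for H19, 0.212 for Igf2os and 0.925 for Kcnq1ot1, and no name passed (0.00%; smallest adjusted value 0.0811). That comparison also differs from edgeR in scaling and in the number of names adjusted over. With the authors' library factors in edgeR both calls were kept (adjusted p = 0.0081 for H19 and 0.0098 for Igf2os). Both were also kept in edgeR with no filter on low counts, over 2243 names (adjusted p = 0.0087 and 0.0116). These 2 settings were not combined, and the part of sharing spread between names was not tested.

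Whether the 2 domains moved unlike was examined with ratios inside each library, which do not depend on how libraries are scaled. The log2 ratio of H19 to Kcnq1ot1 counts was -8.19, -8.19 and -7.68 in the model libraries (a, b, c) and -9.36, -9.66 and -10.44 with AVE0991. Every AVE0991 library had less H19 per Kcnq1ot1 than every model library, and the difference of the means was -1.80 ± 0.36 (SE, n = 3 per group). The log2 ratio of Igf2os to Kcnq1ot1 ran from -8.59 to -8.20 in the model group and from -10.51 to -9.44 with AVE0991, again without overlap. That difference was -1.66 ± 0.34 (SE, n = 3 per group). An exact permutation test, 2-sided, gave p = 0.1 for each of these 2 ratios, the smallest value that 3 libraries against 3 can give, and 0.15 after adjustment over the 3 ratios tested. Both differences exceed the spread between libraries, and this design cannot bring them under 0.05 by this test. As Kcnq1ot1 stayed near its model level, these ratios rest largely on the same counts of H19 and Igf2os and are not separate evidence. How many other names would separate the groups in a ratio to Kcnq1ot1 was not counted. In normalized count, 22.5% of the names tested had every AVE0991 library below every model library.

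Within the Igf2 domain the proportion of the 2 RNAs did not separate the groups. The log2 ratio of H19 to Igf2os was 0.41, 0.01 and 0.75 in the model libraries (a, b, c) and 0.08, 0.60 and 0.07 with AVE0991. These ranges overlap, and the difference of the means was -0.14 ± 0.28 (SE, n = 3 per group; exact permutation test, 2-sided, p = 0.7). It turned to 0.041 without model library c, the library with the most H19. With 3 libraries per group, this does not show that the 2 RNAs fell by the same amount.

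**Figure D3:**
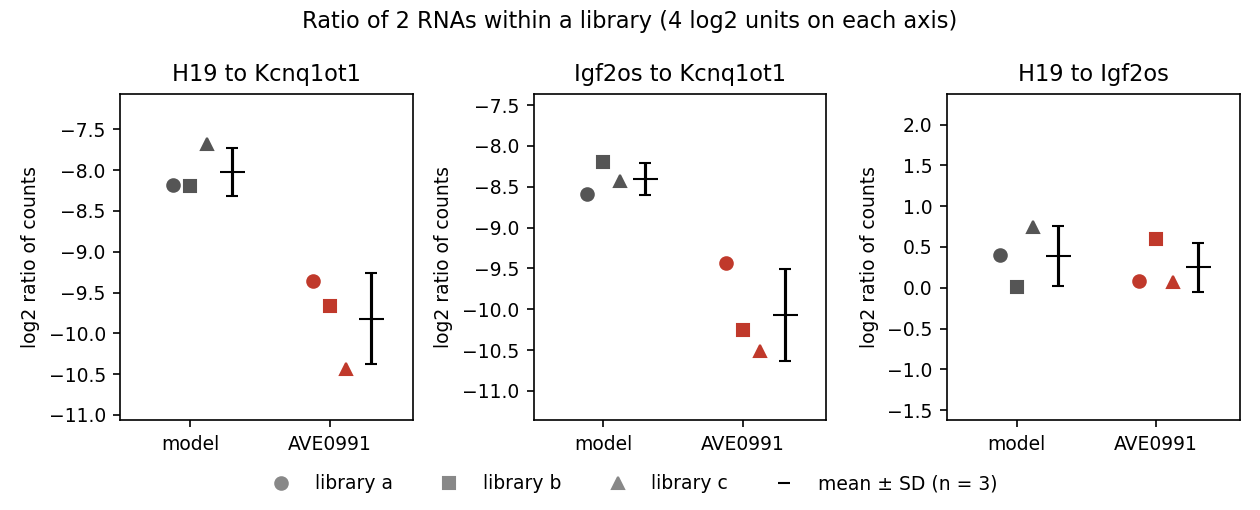
Log2 ratio of the counts of 2 RNAs within each library (vertical axis, 4 log2 units in each panel) in the model and AVE0991 groups, with mean ± SD. The ratios of H19 and of Igf2os to Kcnq1ot1 are lower in every AVE0991 library, with mean differences of -1.80 and -1.66, and the ratio of H19 to Igf2os overlaps between the groups.

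Other named RNAs near these genes were looked up by RefSeq gene order. Of 5 names within 50 genes on either side, 4 had enough counts to be tested, and none passed in edgeR, with 1 at an unadjusted p under 0.05, against 15.3% called over the whole table. DESeq2 and limma-voom called none of them either. That one was Nctc1, the lncRNA next to H19 on the side of the shared enhancers, with no gene between them. Nctc1 had 59.1, 80.5 and 72.1 normalized counts in the model libraries (a, b, c) and 32.6, 30.6 and 45.4 with AVE0991. The groups did not overlap, as for 39.0% of the names tested. The log2 fold change of Nctc1 was -0.90 ± 0.33 (SE; adjusted p = 0.109, same edgeR test). Next to Kcnq1ot1, on the side away from H19 and again with no gene between them, 4933417O13Rik had at most 61.5 normalized counts in an AVE0991 library and at most 42.5 in a model library, and its groups overlapped. Its log2 fold change was 0.50 ± 0.52 (SE). The next named RNA on that side, E230032D23Rik, had at most 11.2 normalized counts in any library and was not tested. Farther out on the H19 side, Gm16982 and Mir7063 had log2 fold changes of -0.23 ± 0.26 and -0.47 ± 0.27 (SE).

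Across the rest of chromosome 7, 11 of 121 names tested passed (9.09%), 6 higher and 5 lower, with a median log2 fold change of 0.02. On the other chromosomes 272 of 1732 passed (15.7%), with a median of -0.01. The number on chromosome 7 was 1 without model library b and 19 without model library a. These counts describe the table, and the difference between chromosomes was not tested.

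Other RNAs of imprinted loci were taken from a list of 43 symbols, of which 9 were in the table by their present or older RefSeq symbol and 8 were tested. Of the 8, 3 fell and 5 did not pass, a share of 37.5% against 15.3% over all names, and their median log2 fold change was -0.35 against -0.0029 over all names. The list does not hold every imprinted RNA in the table. With all names that RefSeq places between Dlk1 and Dio3, Ube3a and Mkrn3, or Peg3 and Zim3 added, a step chosen after seeing the values, 19 were tested, of which 3 fell, 1 rose and 15 did not pass (21.1% called), and the median was -0.14. The list was written with earlier results of these data known, so its count is not independent evidence of a direction. Only Airn among the 3 kept its call whichever library was left out. Airn, the paternal antisense RNA that silences the Igf2r cluster, ran from 11474 to 18486 normalized counts in the model group and from 3163 to 4419 with AVE0991; its log2 fold change was -1.97 ± 0.22 (SE; adjusted p = 0.00145, same edgeR test). Like H19 and Igf2os, it had no overlap between groups, which was so for 39.0% of the names tested.

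The other RNAs of the list that fell were A230057D06Rik and Mir344. Both lie on chromosome 7 far from H19, with 1873 and 1866 genes between in RefSeq's order. A230057D06Rik ran from 2403 to 3863 normalized counts in the model group and from 1786 to 1967 with AVE0991, with a log2 fold change of -0.69 ± 0.18 (SE; adjusted p = 0.0388, edgeR). Mir344, a locus named for a microRNA and not a measure of the mature one in these libraries, ran from 900.1 to 1273 and from 613 to 704, with a log2 fold change of -0.63 ± 0.18 (SE; adjusted p = 0.0472, edgeR). Both calls were lost with library totals as the scaling and whenever a library other than model library a was left out; that of Mir344 was also lost with DESeq2's size factors and with no filter (adjusted p = 0.0526 and 0.0512, edgeR).

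The RNAs of the list that did not pass were, besides Nctc1, 4 of other domains. Gnasas1, the antisense RNA of the Gnas domain that older annotation calls Nespas, lay the other way. It had 168 to 223 normalized counts in the model group and 264 to 319 with AVE0991, without overlap, as for 39.0% of names tested. Its log2 fold change was 0.61 ± 0.19 (SE; adjusted p = 0.0675, edgeR), and it passed in DESeq2 (adjusted p = 0.0464). Mirg, of the Dlk1-Dio3 cluster, averaged 3721 ± 720 normalized counts in the model libraries and 3686 ± 227 in the AVE0991 libraries (SD over 3 libraries), and its log2 fold change was 0.057 ± 0.17 (SE). Mir379, a microRNA locus of the same cluster, had a log2 fold change of 0.081 ± 0.14, and Peg13, a paternally expressed lncRNA known from brain, had one of -0.063 ± 0.12. The groups of Mirg, Mir379 and Peg13 overlapped, as those of Kcnq1ot1 did. Among the names added by gene order, Dio3os, Mir376c, Mir495 and Mir667 of the Dlk1-Dio3 cluster had log2 fold changes from -0.14 to 0.085 and did not pass. The clone-named RNA 3110009F21Rik, which RefSeq places in that stretch, rose by 2.93 ± 0.34 on the log2 scale (SE; adjusted p = 0.00161, edgeR). Between Ube3a and Mkrn3 all 7 names tested had negative fold changes, as 935 of the 1866 names tested did, and 3 had an unadjusted p under 0.05 (edgeR). A230057D06Rik and Mir344 were the 2 that passed (28.6%, against 15.3% over all names). Mir344, Mir344-2, Mir344b, Mir344c and Mir344d-1 lie close together in gene order, so these names may not vary independently. Meg3, the maternal lncRNA of the Dlk1-Dio3 cluster, could not be resolved into single libraries. The authors' deposited table gives it means of 213794 in the model group and 218164 with AVE0991. Rian was not analysed here.

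**Figure D4:**
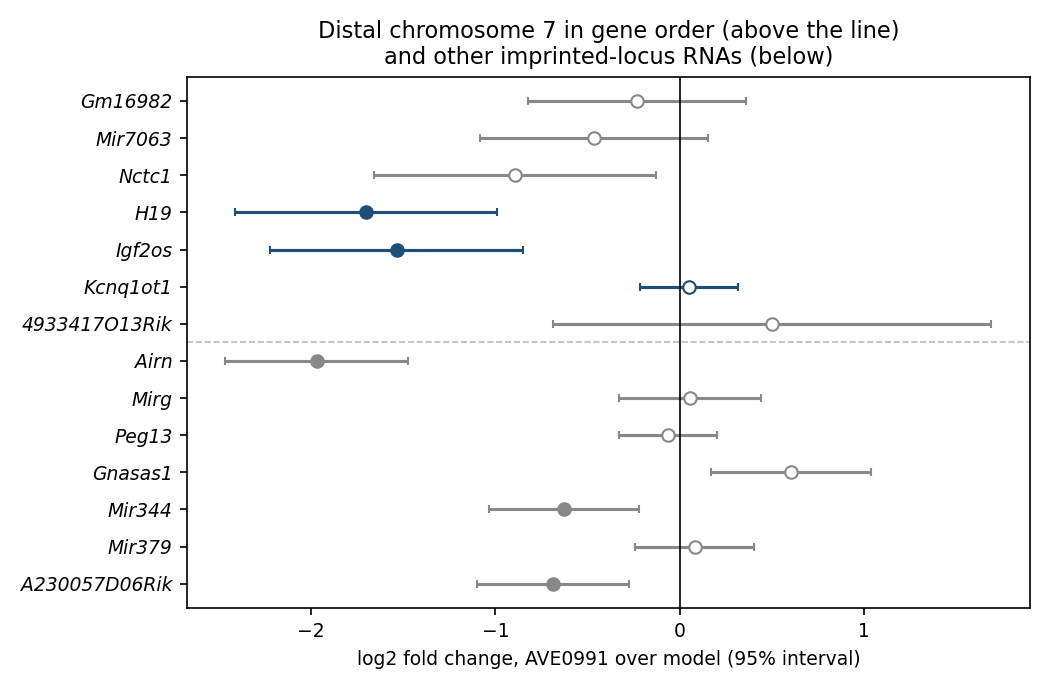
Log2 fold change of AVE0991 over model with its 95% interval (horizontal axis) for tested names around H19, Igf2os and Kcnq1ot1 in gene order (above the dashed line) and for the other tested RNAs of the imprinted list (below it); filled points have an adjusted p under 0.05. H19 and Igf2os lie between Nctc1 (-0.90, not past the threshold) and Kcnq1ot1 (0.051), and Airn (-1.97) is the lowest.

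The RNAs whose log2 CPM followed each member most closely over the 6 libraries lay elsewhere in the genome for H19 and Igf2os. For H19 the highest Pearson's r was 0.99, with Mir7117, followed by 4930578N18Rik, 1700109G14Rik, Gm15511 and A330033J07Rik at 0.97 each. For Igf2os it was 0.99 with Mir7093 and with 4930578N18Rik, and 0.98 with Cldn34-ps, Mir6354 and A330033J07Rik. H19 and Igf2os followed each other at r = 0.96. Kcnq1ot1 had r = -0.20 with H19 and -0.30 with Igf2os, and its closest names were Gm29968 (r = 0.98), Gm10874 and Gm14317 (0.97 and 0.96), 9130221H12Rik (0.95) and 4933402J10Rik (0.94). Only 9130221H12Rik of these is on chromosome 7. These values rest on 6 libraries that share the treatment groups, and the highest of 1866 names is high by selection.

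The table of names lists non-coding RNAs and so holds almost none of the usual cell type markers, most of which code for proteins. Their absence says nothing about the tissue, and the labelled tissue could not be checked against its defining genes. None of 8 dopaminergic neuron markers, of 7 of leptomeninges and fibroblasts, or of 4 each of endothelium, pericytes, oligodendrocytes, astrocytes and microglia was present. Of 5 choroid plexus markers 1 was present, Otx2os1, which runs beside Otx2. It fell, as 7.82% of all names tested did, from a range of 168 to 309 normalized counts in the model group to 76.5 to 137 with AVE0991. Its log2 fold change was -1.21 ± 0.32 (SE, adjusted p = 0.0391, same edgeR test), and its call under other settings was not examined. Otx2 is also a gene of midbrain development, so this RNA does not mark the choroid plexus alone. Of 5 neuronal markers, Meg3 and Miat were present. Meg3 had means of 213794 in the model group and 218164 with AVE0991 (unadjusted p = 0.939, the authors' test). Miat rose, as 7.50% of all names tested did, with 20390 ± 7168 normalized counts in the model libraries and 38198 ± 2145 in the AVE0991 libraries (SD over 3 libraries). Its log2 fold change was 0.97 ± 0.24 (SE, adjusted p = 0.0288, edgeR), and its call under other settings was not examined either. The part of cell composition in the fall of H19 and Igf2os was not tested, and in bulk tissue fewer cells of a type and less RNA per cell cannot be told apart.

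Library depth and spread bear on these values as follows. The recovered named counts summed to between 1916844 and 3106458 per library, and the separate table of NONCODE identifiers to between 37036986 and 52029003. One library stood apart: on the first principal component of the named RNAs, which held 50.8% of the variance, model library a lay at -7.05, with the other model libraries at -24.4 and -23.4 and the AVE0991 libraries from 15.7 to 21.6. Model library a had the highest Kcnq1ot1 and a middle value of H19. Without it the log2 fold changes were -1.74 for H19, -1.57 for Igf2os and 0.12 for Kcnq1ot1 (adjusted p = 0.0113, 0.0147 and 0.417, edgeR), so the calls of the 3 RNAs were on the same side of the threshold.

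**Figure D5:**
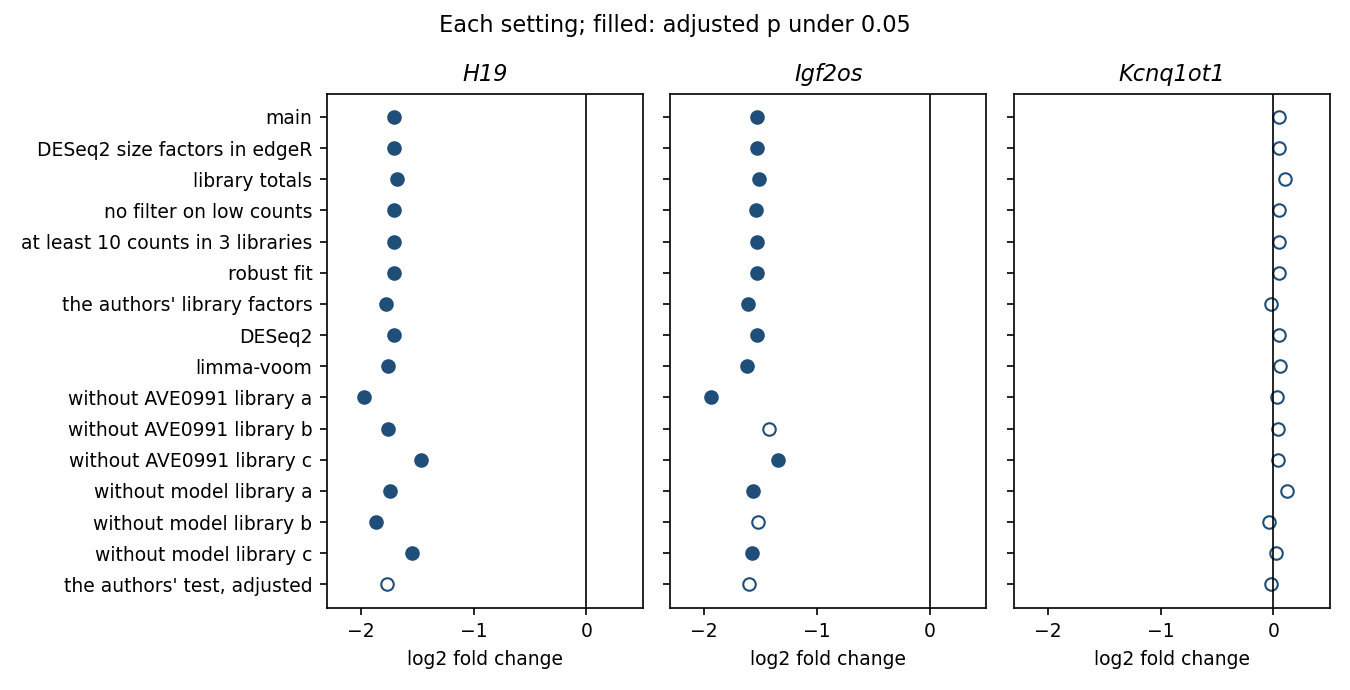
Log2 fold change of AVE0991 over model (horizontal axis) of H19, Igf2os and Kcnq1ot1 under each setting (vertical axis); filled points have an adjusted p under 0.05. H19 stays between -1.97 and -1.47 and Igf2os between -1.94 and -1.35, and Kcnq1ot1 lies between -0.035 and 0.12.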

How the data were processed

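TRIzol RNA was sequenced, and reads were checked with FastQC 0.11.8 and trimmed with fastp 0.19.5, per the labels' protocols. Build mm9, STAR 2.7.7a and DESeq2 1.10.1 come from the submitters' processing notes. No source used here states the program that counted reads, its annotation or its use of strand. Deposited whole-number counts per NONCODE identifier served for depth only. For each name the authors' deposited table holds a group mean signal (normalized counts), a test score (statistic) with its degrees of freedom, an unadjusted p-value and a log2 fold change.

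No file pairs names with identifiers, so counts per library were recovered from the named table: each group mean is a mean of 3 whole counts over library factors, and the statistic and degrees of freedom fix the 2 group variances. Among 2247 names with a statistic, 2243 (99.8%) had exactly 1 set of whole counts (relative tolerance on the mean 1e-09). The factors ran from 0.921 to 1.18. Norad, Meg3, Malat1 and 4930509G22Rik were not resolved, and 35 names had no statistic. The step was tested on simulated data, as was the fit, and the outcomes are not given here.

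The main test was the quasi-likelihood F-test of edgeR 4.0.16 in R 4.3.3, with TMM scaling and filterByExpr, over all resolved names, with Benjamini-Hochberg adjusted p under 0.05. The planned fit assumed counts, and the recovered ones were used. Standard errors are the log2 fold change over the square root of F. Ratios used a pseudocount of 0.5 and exact permutation. Likeness is Pearson's r over 6 libraries for names with mean log2 CPM of at least 1. Of 2282 names, 2271 matched RefSeq (GRCm38.p6), used for gene order and class; coordinates are left out, as its build is not that of the files. Named genes were the 3 members, the called imprinted-list RNAs with Airn, Meg3, Rian and Mirg, the neighbours that passed and the 3 nearest to each member, and the 5 closest in pattern; Nctc1, Peg13, Mir379, Gm16982, Mir7063, Gnasas1, Otx2os1, Miat and the RNAs added by gene order were also named, some after their values were seen. Members and lists were chosen with earlier results of these data known. Alternatives were DESeq2 1.42.0 and its size factors, limma-voom (limma 3.58.1), library totals, a robust fit, 2 other filters, leaving out each library, the authors' test and, added after seeing the data, the authors' library factors and a wider set of imprinted-locus names by gene order.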

Additional observations from a re-analysis of the deposited data

How the results depend on the processing

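H19 kept its direction in all 15 alternatives and its call in 14; Igf2os kept its direction in 15 and its call in 12. The exceptions were the authors' test after adjustment, with log2 fold changes of -1.77 (H19) and -1.60 (Igf2os), and for Igf2os the fits without AVE0991 or model library b. With a library left out the log2 fold change ran from -1.97 to -1.47 for H19, from -1.94 to -1.35 for Igf2os and from -0.035 to 0.12 for Kcnq1ot1. Kcnq1ot1 never passed, and its sign turned without model library b (-0.035), with the authors' library factors (-0.017) and in the authors' test (-0.017). The log2 ratio of H19 to Igf2os ran from -0.33 to 0.041 with a library left out, turning to 0.041 without model library c, and otherwise kept its sign.

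Counts moved more. Of the 286 names changed, 179 changed at least 2-fold, and the authors' test gave 0 after adjustment (423 at an unadjusted p under 0.05). With a library left out 82 to 411 names passed: 82 and 104 without model library b or c, and 137 without each AVE0991 library. The imprinted list's 3 calls became 1 with library totals, 0 in the authors' test, 1 to 3 with a library left out, and 4 of 19 with names added by gene order. The 11 on chromosome 7 became 19 in DESeq2, 0 in the authors' test and 1 to 19 with a library left out. The neighbours had 0 in every alternative, including the window of 20 genes. Every fit with a library left out has fewer samples than the main one, and the numbers of names passing lay both below and above its 286. Why these numbers differ was not tested. No paired analysis was possible because the recovered libraries carry no replicate numbers. The choice of library factors and the added names were chosen after seeing the data. Depth limits E230032D23Rik, at most 11.2 normalized counts.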
